A study of Mus musculus with 2 samples.

Results

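The oligoadenylate synthetase (OAS) family of the mouse was examined in primary fibro-adipogenic progenitors (FAPs), the stromal progenitor cells of skeletal muscle that can become adipocytes. Its members were taken by gene name and were Oas1a, Oas1b, Oas1c, Oas1g, Oas2, Oas3, Oasl1 and Oasl2, so 8 genes of the 26082 listed in each library. All 8 were found, and all 8 had more than 3 counts in each library. The OAS genes Oas1d, Oas1e and Oas1h were not among the members and are described separately below. The FAPs were wild type ("WT") in both groups and had been transfected with plasmids overexpressing TGFBR3 or with the empty vector. Both groups were then kept in adipogenic induction medium, DMEM with insulin at 10 μg/ml, dexamethasone at 0.25 μM, IBMX at 0.5 mM and FBS at 20%. Each group was 1 library, so no difference below has a replicate check and no test was made. The comparison asks how RNA levels differed between FAPs given the TGFBR3 plasmid and FAPs given the vector.

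Tgfbr3 itself was at 36.9 FPKM (fragments scaled by exon length and by library total) in the library labelled TGFBR3 overexpression and at 35.1 in the library labelled control. This was 1.05-fold (95% interval 1.03 to 1.07), and below the ratio of the median gene once all ratios were centred on it (log2 −0.06). The libraries are therefore called by their labels, OE and control, and the direction of each difference below is that between the labels. Whether it goes with more TGFBR3 cannot be told from these libraries. They held 62321027 and 83779203 gene counts. Of 7 FAP markers, 7 were above 3 counts in at least 1 library, with a summed 1574 FPKM in the library labelled OE and 1667 in the library labelled control, although Pi16, a marker of one FAP subset, was at 0.03 and 0.08. The markers did not move together, since Col1a1 was at 467 FPKM against 870 and Ly6a at 1013 against 706, and the list held 0.534% of the counts against 0.795%. Markers of macrophages and other leukocytes, of which 10 were in the files, summed to 0.94 and 0.54 FPKM. The highest of them was Csf1r at 0.46 FPKM, and Adgre1, Tyrobp and Fcer1g were listed at 0 in both libraries. Among the others, C1qb had 20 counts against 0, Itgam 11 against 0 and Laptm5 35 against 19. In turn, C1qa had 0 against 8 and Ptprc 0 against 4. The 4 endothelial markers summed to 1.06 and 0.93 FPKM with Tie1 at 0, and 3 muscle cell markers summed to 1.15 and 0.81 FPKM. The endothelial markers went opposite ways, with Kdr at 262 counts against 65, Pecam1 at 24 against 8 and Cdh5 at 165 against 328. These are bulk samples, in which more cells with a transcript and more of it per cell cannot be told apart.

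OAS enzymes are interferon-induced sensors of double-stranded RNA. When they bind it they join ATP into short adenosine chains with an unusual linkage, called 2-5A, a signal that leads to the breakdown of RNA and slows translation during viral infection. The Oas1 genes encode proteins with 1 OAS unit, while Oas2 and Oas3 encode proteins with several, of which only some are catalytic. The OAS-like proteins carry a ubiquitin-like tail, and Oasl1 makes no 2-5A. Interferons induce the family through a factor that contains Stat2 and Irf9 and binds a promoter motif called ISRE.

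All 8 genes lie on chromosome 5, in 2 groups. In mm10 coordinates with the GENCODE M21 annotation, the first group runs from Oasl2 (114896936 to 114912234, plus strand) to Oasl1 (114923240 to 114937915, plus strand). The second holds Oas2 (120730333 to 120749853, minus strand), Oas3 (120753098 to 120777661, minus), Oas1c (120800194 to 120812514, minus), Oas1b (120812635 to 120824163, plus), Oas1g (120876142 to 120887613, minus) and Oas1a (120896256 to 120907521, minus). Windows of 300 bases around the start (250 before it and 50 after) were given by RefSeq (GRCm38.p6, the mm10 assembly) for 6 of the 8 genes, Oas1a, Oas1c, Oas1g, Oas3, Oasl1 and Oasl2. The core of the ISRE, searched as the letters GAAANNGAAA on both strands, was present in 4 of these 6 windows, and in 3.44% of all 32851 windows. The stretches that hold it are shown because they are nearly the same in front of 3 of the genes. Positions are counted from the start RefSeq gives, which is 120907525 for Oas1a, 120887613 for Oas1g, 120812514 for Oas1c and 120777659 for Oas3, and from the GENCODE start for Oas1b, and the starts of Oas1a and Oas3 differ by a few bases from the gene ends above. Capitals mark the ISRE cores, and each stretch is read 5′ to 3′ on the strand of the gene named.
Oas1a: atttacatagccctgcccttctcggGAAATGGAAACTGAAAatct
Oas1g: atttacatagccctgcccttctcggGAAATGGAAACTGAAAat
Oas1b: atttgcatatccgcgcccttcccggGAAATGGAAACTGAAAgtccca
Oas3: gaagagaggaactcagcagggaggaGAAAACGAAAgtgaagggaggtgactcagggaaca

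The Oas1a stretch (chr5:120907526-120907570, minus strand) and the Oas1g stretch (chr5:120887614-120887656, minus strand) end at position −1, and the Oas3 stretch (chr5:120777700-120777759, minus strand) ends at position −41. Oas1b and Oas1c are transcribed away from each other from starts 121 bases apart, so the Oas1b stretch (chr5:120812588-120812634, plus strand) was read from the window of Oas1c. Its capitals lie at positions −22 to −7 from the start of Oas1b (chr5:120812613-120812628) and at −114 to −99 from the start of Oas1c. In Oas1a the capitals lie at −20 to −5, and in Oas1g at −18 to −3. The 16 bases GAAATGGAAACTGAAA, which are 2 ISRE cores that overlap, are the same in all 3 stretches. Among all 32851 windows, 7 held these 16 bases on either strand, and they belonged to 5 genes, Oas1a, Oas1c, Oas1g, Apol9a and Apol9b. Apol9a was at 32.9 FPKM in the library labelled OE and 8.33 in the library labelled control, and Apol9b at 93.9 and 18.0. The core of Oas3 lies alone, at −75 to −66. A second motif, GAS, searched as TTCNNNGAA, was found among the 6 windows in that of Oas1a only, at −98 to −90, and in 8.30% of all windows. A match is a description of letters and not of a bound factor.

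All 8 members were higher in the library labelled OE, as were 62% of the 21364 genes with more than 3 counts in at least 1 library. Their FPKM summed to 287.6 in that library and to 55.14 in the library labelled control, which is 5.22-fold. By counts, each scaled by the total of its library, the sum was 5.00-fold higher (95% interval 4.92 to 5.09). Adding 1 to each FPKM before taking log2 makes differences of low genes appear smaller. On this scale the difference ranged from 1.74 (Oas2) to 3.45 (Oasl1), with a median of 2.22. The median over those 21364 genes was 0.061. At least 2-fold on this scale was reached by 8 of the 8 members, against 1.73% of the 21364 genes and 3.14% of the 11213 genes with a mean of at least 1 FPKM. At least 4-fold was reached by Oasl1, Oas1b, Oas1g and Oas3, 4 of 8, against 0.36% of the 21364 genes. Without the added 1, Oas1c at 4.92 (4.50 to 5.38) and Oasl2 at 4.17 (4.07 to 4.27) were above 4-fold too. By the plain ratio without a pseudocount, 8 of 8 were at least 2-fold higher, against 13.4% of the 17985 genes with more than 3 counts in both libraries. No member was lower by 2-fold, as were 0.58% of the 21364 genes. Ranked by the log2 difference among the 11213 genes, the members lay between rank 20 (Oasl1) and rank 102 (Oas2). Intervals are exact, at the 95% level, and cover counting error only; whether molecular identifiers were used is not given in the sources used here, and without them reads are not independent molecules.

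**Figure D1:**
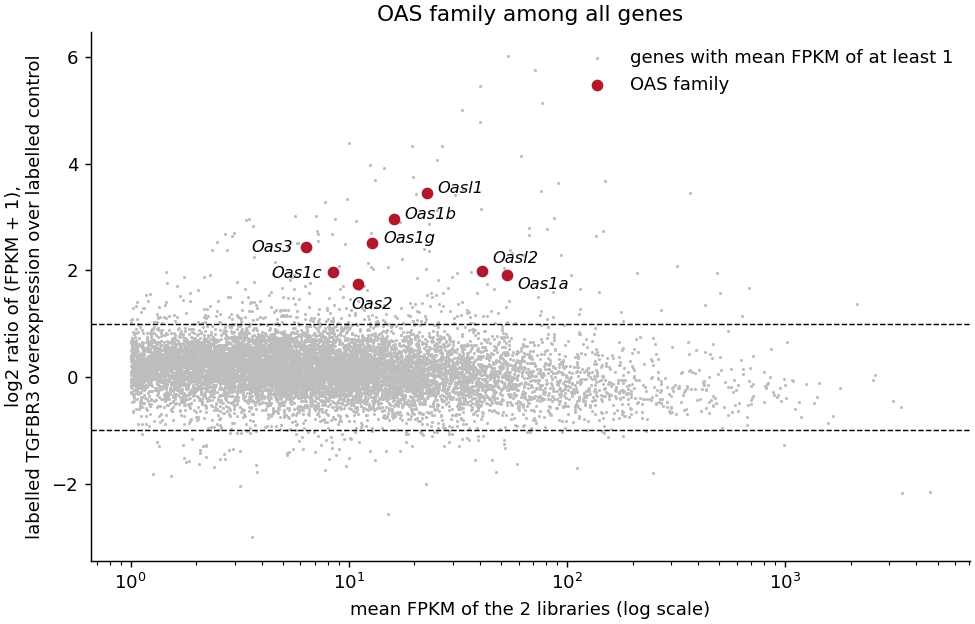
Each grey point is 1 of the 11213 genes with a mean of at least 1 FPKM, placed by that mean (log scale) and by its log2 difference in FPKM + 1, labelled TGFBR3 overexpression minus labelled control; dashed lines mark 2-fold. The 8 red OAS points all lie above the upper dashed line, from 1.74 to 3.45.

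Of the genes with 1 OAS unit, Oas1a, an active synthetase, had the highest level per length in each library, while Oasl2 had more counts. Oas1a was at 84.5 FPKM (10803 counts) in the library labelled OE and at 21.7 (3782 counts) in the library labelled control, a log2 difference of 1.91 and a plain ratio of 3.89 (3.75 to 4.04). Oas1g, its close copy, was at 22.5 FPKM (3580 counts) and 3.11 (673 counts). Its log2 difference was 2.52 and its plain ratio 7.24 (6.67 to 7.88), an interval that lies above that of Oas1a. The coding regions of this pair were 96.7% identical over 1101 bases, whereas the other pairs of members ranged from 61.6% to 80.5%. Reads from identical stretches cannot be assigned to either gene. Of all runs of 150 bases, the length of 1 read, 32.4% in Oas1a and 24.1% in Oas1g also occurred in another gene, and none did in the other 6 members. The longest run the pair shares is 231 bases of exon 2 of 7, bases 222 to 452 of the coding region (chr5:120905616-120905846 in Oas1a and chr5:120885793-120886023 in Oas1g, minus strand), shown here because a read within it fits both genes equally.
Oas1a and Oas1g: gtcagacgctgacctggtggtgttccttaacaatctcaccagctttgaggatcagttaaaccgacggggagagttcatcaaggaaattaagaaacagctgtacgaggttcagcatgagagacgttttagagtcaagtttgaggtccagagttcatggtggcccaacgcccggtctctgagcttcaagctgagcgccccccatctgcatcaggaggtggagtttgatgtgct

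How reads that fit both genes were counted is not given in the sources used here, so the split between Oas1a and Oas1g is uncertain. With the pair summed, the level was 107 FPKM (14383 counts) in the library labelled OE and 24.8 (4455 counts) in the library labelled control. The summed log2 difference was 2.06 and the plain ratio of the summed counts 4.40 (4.25 to 4.55). The plain ratio does not depend on how shared reads were split between the pair, while the summed FPKM does, since a read adds more FPKM to the shorter Oas1a.

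Oas1b is known as the flavivirus resistance gene of wild mice, and in many laboratory strains a premature stop shortens its protein. The annotation lists it as a polymorphic pseudogene. Its RNA was at 29.3 FPKM (3962 counts) in the library labelled OE and at 2.91 (538 counts) in the library labelled control. The log2 difference of 2.95 was the second highest of the family, and the plain ratio was 10.0 (9.16 to 11.0). Oas1c, which starts 121 bases away on the other strand, was at 14.0 FPKM (2292 counts) and 2.85 (635 counts). Its log2 difference was 1.97 and its plain ratio 4.92 (4.50 to 5.38). This divergent pair thus had control levels whose counting intervals overlap (2.68 to 3.18 FPKM for Oas1b and 2.64 to 3.09 for Oas1c), and ratios whose intervals did not. Gm43069, an antisense gene that overlaps 9.44% of the exon bases of Oas1c, had 11 counts in the library labelled OE and 0 in the other, so it holds few reads beside the 2292 of Oas1c. The protocol keeps strand, while the strand setting of the counting is not given in the sources used here.

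Oas2 and Oas3 encode the larger synthetases. Oas2 was at 17.6 FPKM (5310 counts) in the library labelled OE and 4.56 (1879 counts) in the library labelled control. The log2 difference of 1.74 was the lowest of the family, and its plain ratio was 3.85 (3.65 to 4.06), which overlaps the interval of Oas1a. Oas3 was the least abundant member per length in each library. It was at 11.4 FPKM (5470 counts) and 1.28 (840 counts), a log2 difference of 2.44 and a plain ratio of 8.87 (8.25 to 9.55). The neighbours Oas2 and Oas3 had nearly equal counts in the library labelled OE, and their FPKM differed since the merged exons of Oas3 span 7069 bases and those of Oas2 span 4451.

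The OAS-like genes Oasl1 and Oasl2, side by side on the chromosome, had ratios whose intervals lay far apart. Oasl1, known to hold back translation of the Irf7 message, was at 42.6 FPKM (7547 counts) in the library labelled OE and at 2.99 (720 counts) in the library labelled control. Its log2 difference of 3.45 and plain ratio of 14.3 (13.2 to 15.4) were the highest of the family. Oasl2, which unlike Oasl1 can make 2-5A, was at 65.6 FPKM (28378 counts) and 15.7 (9266 counts). Its log2 difference was 1.99 and its plain ratio 4.17 (4.07 to 4.27). The windows of both genes held no ISRE core by the letters searched.

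**Figure D2:**
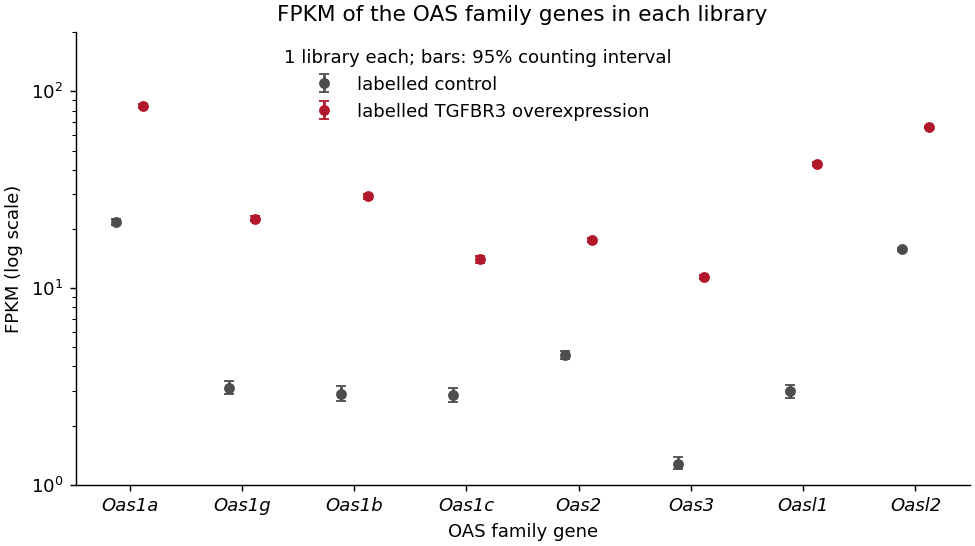
FPKM (log scale) of the 8 OAS genes in the library labelled control (grey) and the library labelled TGFBR3 overexpression (red), 1 library each, with 95% counting intervals as bars. Oas1g, Oas1b, Oas1c and Oasl1 lie together near 3 FPKM in the control and spread from 14.0 to 42.6 in the other library.

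The order of levels was not the same in each library. In the library labelled control it ran Oas1a, Oasl2, Oas2, Oas1g, Oasl1, Oas1b, Oas1c and Oas3. The neighbours from Oas1g (3.11 FPKM) to Oas1c (2.85 FPKM) had counting intervals that overlap and could not be ordered at this depth. In the library labelled OE the order was Oas1a, Oasl2, Oasl1, Oas1b, Oas1g, Oas2, Oas1c and Oas3, and no neighbours overlapped. Oasl1, Oas1b and Oas1g thus stood above Oas2 there, and below it in the library labelled control. By log2 difference, the intervals of Oas1g and Oas3 overlapped, and so did those of Oasl2, Oas1c and Oas1a with one another.

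The make-up of the family RNA differed accordingly. Oas1a held 39.4% of the summed FPKM in the library labelled control and 29.4% in the library labelled OE, and Oasl2 held 28.5% and 22.8%. The share of Oasl1 was 5.42% and 14.8%, and that of Oas1b was 5.28% and 10.2%. Oas1g was also higher in share in the library labelled OE, at 5.64% and 7.84%, and so did Oas3, at 2.32% and 3.96%. Oas2 stood at 8.27% and 6.11%, while the share of Oas1c, at 5.17% and 4.88%, was nearly level. As a share of the summed counts, which favours long genes, Oasl2 came first with 50.5% (49.8% to 51.3%) and 42.1% (41.8% to 42.5%). Oasl1 held 3.93% (3.65% to 4.22%) and 11.2% (11.0% to 11.4%) of these counts, and the intervals of each gene's 2 shares did not overlap except for Oas1c.

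**Figure D3:**
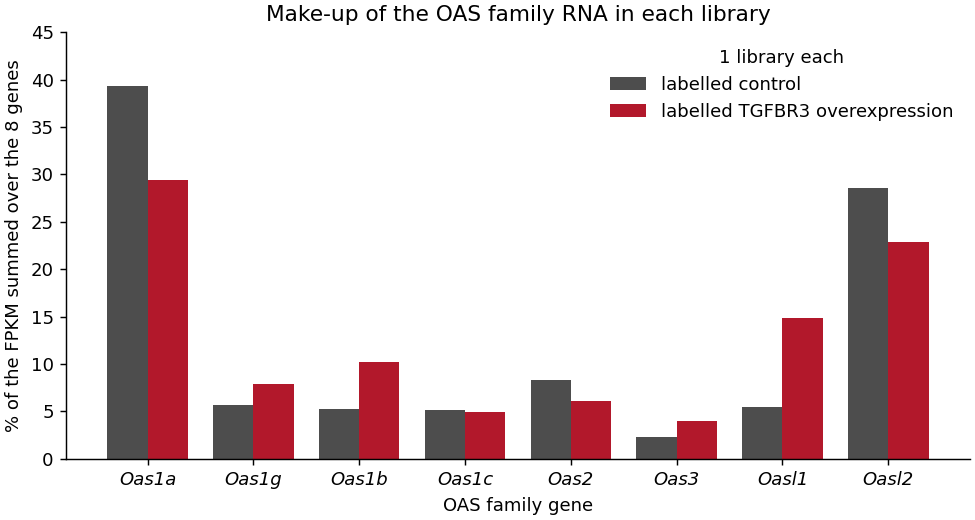
Share of the FPKM summed over the 8 OAS genes that each gene held, in percent, in the library labelled control (grey) and the library labelled TGFBR3 overexpression (red), 1 library each. The bars of Oas1a (39.4% and 29.4%) and Oasl2 (28.5% and 22.8%) are lower in the red library, and those of Oasl1 (5.42% and 14.8%) and Oas1b (5.28% and 10.2%) are higher.

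Other OAS genes lie in the same cluster. Oas1d, Oas1e and Oas1h were listed at 0 in the library labelled control and had 32, 18 and 25 counts in the library labelled OE. Against a floor of 3 counts per library, Oas1d was at least 14.5-fold higher, Oas1h at least 11.3-fold and Oas1e at least 8.17-fold. Their levels stayed at 0.14 to 0.23 FPKM, far under the 8 members. Of runs of 31 bases, 22.3% in Oas1d, 24.3% in Oas1e and 7.11% in Oas1h also occurred in other genes, against 0% of runs of 150 bases. Whether some of these few reads came from other genes was not tested. Oas1d is known from the ovary and oocytes. Oas1f was not among the genes listed, so its level was not compared.

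Other genes that act on 2-5A or its pathway differed less. The list held Pde12 and Akap7, which break down 2-5A, and Abce1, which has a further role in ribosome recycling. All 3 were higher in the library labelled OE, against 62% of all 21364 genes. At 2-fold there were 0 of 3 (1.73% of all genes), with a median log2 difference of 0.47. Abce1 was the highest of them by log2 difference (0.67, from 8.27 to 13.7 FPKM), and Pde12 the lowest (0.43, from 2.38 to 3.56 FPKM).

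The other sensors of double-stranded RNA and their partners were higher in the library labelled OE in 8 of 8 cases (62% of all genes), and 6 of 8 reached 2-fold (1.73% of all genes), with a median log2 difference of 1.44. Zbp1, a sensor of Z-form nucleic acids, had the highest value of this list, 2.05, at 83.5 FPKM against 19.5. Mavs, the mitochondrial adaptor of the RIG-I-like receptors, had the lowest, 0.19, at 17.2 FPKM against 14.9. The median of the OAS members, 2.22, was above the highest value of this list, but the ranges overlap. Zbp1 had a higher value than Oasl2 (1.99), Oas1c (1.97), Oas1a (1.91) and Oas2 (1.74), and a lower one than the other members. With Oas1a and Oas1g summed, the members' median was 2.06.

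Of the 9 genes of the interferon signal, 8 were higher and 1 lower, where 62% of all genes were higher. On the scale of FPKM + 1, 2 of 9 reached 2-fold (1.73% of all genes). By the plain ratio, 3 of 9 did (13.4% of the 17985 genes with more than 3 counts in both libraries). Irf7, a factor that drives interferon genes and whose translation Oasl1 restrains, was at 278.7 FPKM against 21.0, a log2 difference of 3.67 and a plain ratio of 13.3. That plain ratio lies at the lower end of the interval of Oasl1, 13.2 to 15.4. On the scale of FPKM + 1 the interval of Irf7, 3.63 to 3.70, lies above that of Oasl1, 3.37 to 3.54. Of the factor that binds the ISRE, Stat2 was at 48.5 FPKM against 17.6 (log2 1.41) and Irf9 at 26.8 against 13.2 (0.97). Irf1 differed by 0.71 and Jak1 by 0.42. The receptor genes Ifnar2 and Ifnar1 differed by 0.22 and 0.03, and the kinase gene Tyk2 by −0.06, with intervals of Ifnar1 and Tyk2 that hold 0. Ifnb1, the interferon gene of this list, had 9 counts against 3. The 3 counts lie at the floor, so no ratio is read from them, and Ifnb1 is counted as higher above on these few reads only. In all, 8 of the 23 other pathway genes in the files reached 2-fold, against 1.73% of the 21364 genes and 8 of 8 members. By 2-fold 0 were lower, as were 0.58% of the 21364 genes. The 23 include Oas1d, Oas1e and Oas1h. At 0.14 to 0.23 FPKM in the library labelled OE, these could not reach 2-fold on the scale of FPKM + 1.

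**Figure D4:**
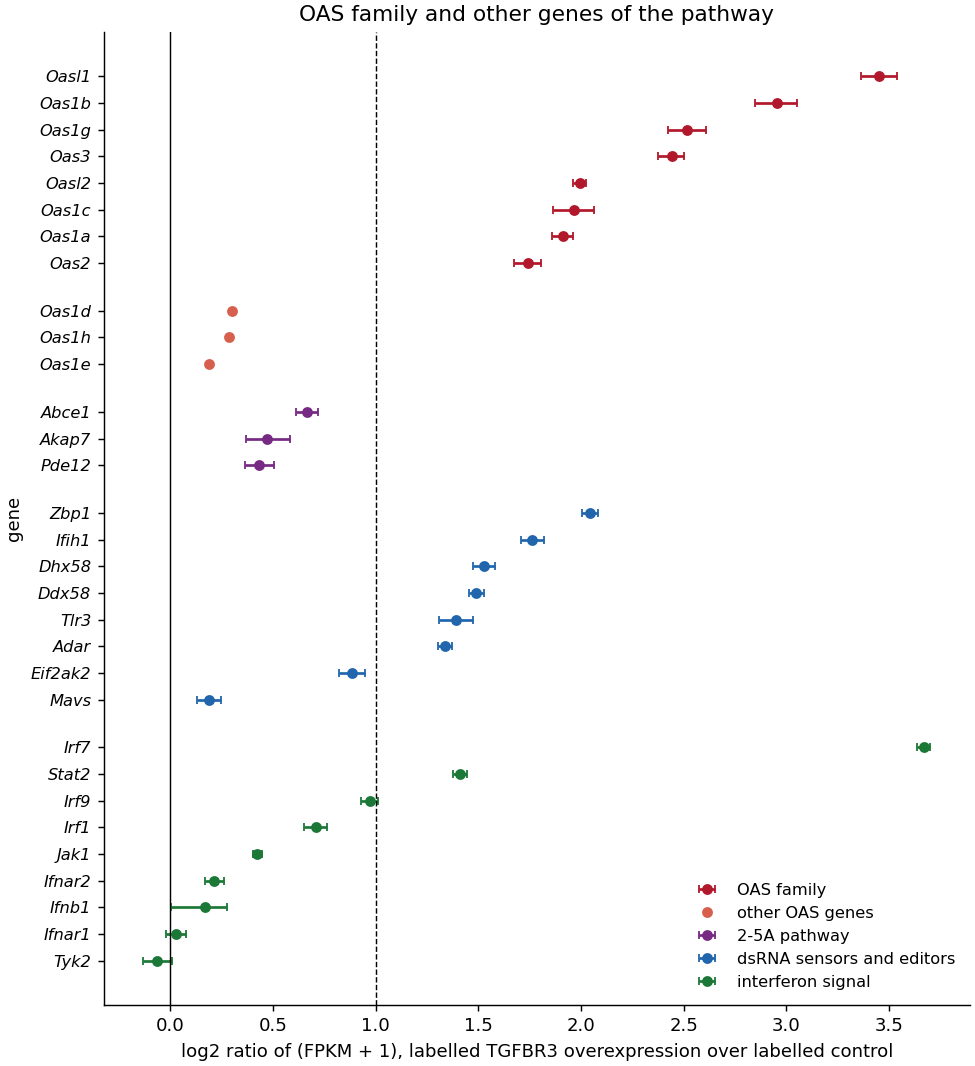
Log2 difference in FPKM + 1, labelled TGFBR3 overexpression minus labelled control, for the 8 OAS genes and 23 other genes of the pathway, coloured by list; bars are 95% counting intervals, left out where the control count is 0, and the dashed line marks 2-fold. The 8 OAS members lie between 1.74 and 3.45, while Abce1, Akap7 and Pde12 lie between 0.43 and 0.67. The other OAS genes Oas1d, Oas1h and Oas1e, counted among the 23, lie between 0.19 and 0.30.

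Most genes around both OAS groups differed little between the libraries, as did most of the 21364 genes. Within 200 kb of a member, 43 other genes are annotated that are not of the OAS family, 30 were in the files and 26 had more than 3 counts in at least 1 library. Of these 26, 15 were higher and 11 lower, where 62% of the 21364 genes were higher. On the scale of FPKM + 1, on which genes near 0 FPKM can hardly reach 2-fold, 0 reached 2-fold in either direction. Of the 21364 genes, 1.73% were higher and 0.58% lower by 2-fold, so 0 of 26 is near the share of all genes. By the plain ratio, 22 could be compared, having more than 3 counts in both libraries. Of these, Gm43579 (8 counts against 4) and Gm13821 (9 against 6) were at least 2-fold higher and Iqcd (15 against 44) at least 2-fold lower. Of all 17985 genes with such counts, 13.4% were at least 2-fold higher by this ratio. The share at least 2-fold lower by this ratio was not worked out, so Iqcd is given without one. The median log2 difference of the 26 was 0.012, against 0.061 for the 21364 genes, and the values ran from −0.37 for Acads to 0.56 for Gm13822. Gm13822 is antisense to Oasl1, overlaps 1.46% of its exon bases, and had 11 counts against 0. Against the floor of 3 counts, Gm13822 and Gm43069, which is antisense to Oas1c, were each at least 4.99-fold higher. Next to the larger group, Dtx1, which lies 18406 bases from it, was at 0.22 and 0.21 FPKM, and Rph3a, 32978 bases away on the other side, was at 0.11 and 0.10 FPKM.

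**Figure D5:**
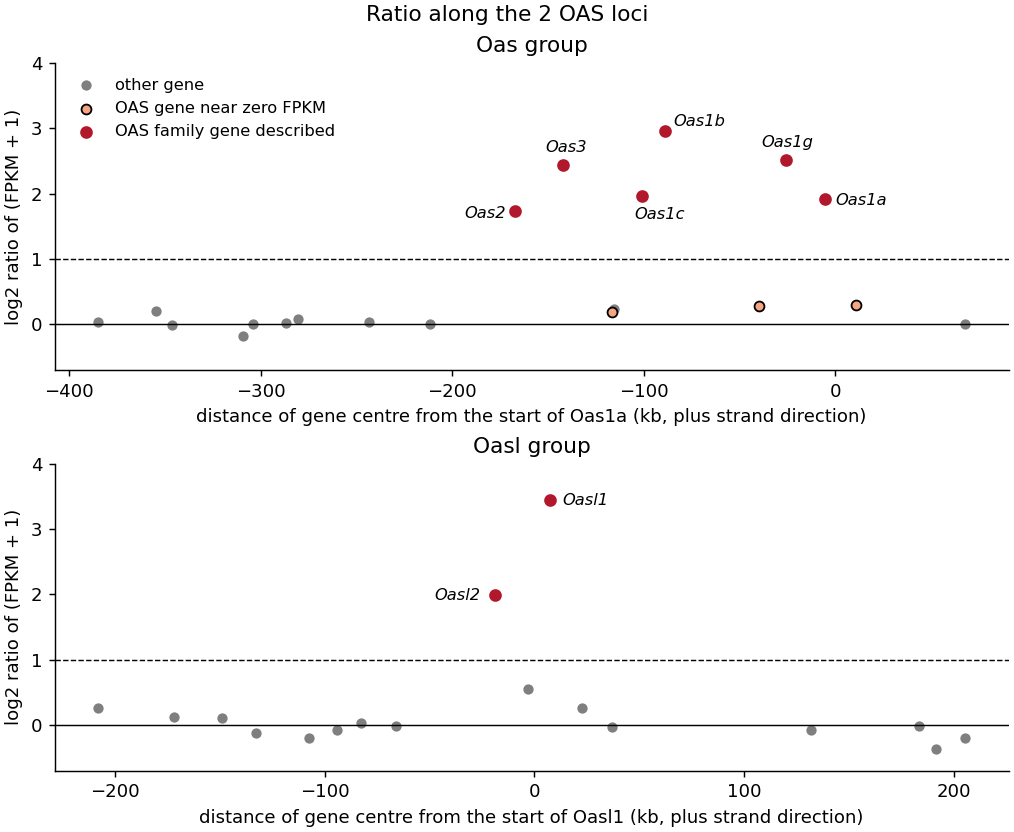
Log2 difference in FPKM + 1, labelled TGFBR3 overexpression minus labelled control, against the distance of each gene's centre from the start of Oas1a (top) or Oasl1 (bottom) in kb along the plus strand; the dashed line marks 2-fold. The red members lie at 1.74 to 3.45, and the grey neighbours at −0.37 to 0.56.

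By size of the difference, the genes nearest to the members' median of 2.22 among genes with a mean of at least 1 FPKM were Sp100, Gbp5 and Herc6. Sp100, a nuclear body protein, differed by 2.21 on the log2 scale, at 29.6 FPKM against 5.62. Gbp5, a guanylate-binding protein, differed by 2.26, at 6.74 FPKM against 0.62. Herc6, the mouse ligase for ISG15, differed by 2.15, at 8.15 FPKM against 1.06. With 1 library per group, likeness of size between 2 values is all that was measured.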

How the data were processed

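Total RNA of 2 libraries of FAPs was poly(A)-selected and sequenced as paired reads of 150 bases with strand kept (per the labels). The authors mapped the reads to mm10. The study's methods name STAR and FeatureCounts, and the submitters' processing notes name cutadapt 1.9, HISAT2 2.2.1 and StringTie 2.1.6, so which made the files is open. The authors deposited raw gene counts, not normalized. They also deposited FPKM, rounded to 2 decimals and scaled by exon length and by library totals that came to 67873303 (OE) and 92434360 (control). Multimapping treatment is not given in the sources used here. From these, log2((FPKM + 1)/(FPKM + 1)) was computed with a 2-fold threshold, a floor of 3 counts and exact Clopper-Pearson 95% intervals on shares of counts (Python 3.11.15, scipy 1.17.1). With 1 library per group no model was fitted. The median gene with at least 1 FPKM in both libraries (10626 genes) was shifted by 0.13 on the log2 scale. All members, the interferon signal genes, the highest and lowest of each other list, neighbours, the 3 genes nearest in ratio and Tgfbr3 could be named; the other genes named were chosen after their values were seen. The members and lists were chosen with earlier results of these data known. Genes of these lists that are not reported here were left out of their counts. Alternatives were pseudocount, counts scaled by library size, centring, GC content, exon length, filter and threshold. The ratios and their intervals were tested on simulated counts that held counting error only, and the other steps were not tested in this way.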

Additional observations from a re-analysis of the deposited data

How the results depend on the processing

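All 8 members were higher and at least 2-fold so under each scaling tried (pseudocount of 0.1, plain ratio, counts scaled by library size, centring on the median gene, and trends over GC content or exon length removed), with single log2 differences from 1.61 (centred) to 3.84 (plain ratio). At a 4-fold threshold on the scale of FPKM + 1, 4 of the 8 members and 2 of the 23 other pathway genes were counted (0.36% of the 21364 genes). By the plain ratio the members Oas1c and Oasl2 and the sensor gene Ifih1 (4.36) were above 4-fold too. The other pathway genes at 2-fold, 8 as reported, numbered 12 with a pseudocount of 0.1. Those added were Oas1d, Oas1h and Oas1e, each at 0 counts in the library labelled control, and Irf9, at a log2 difference of 1.02. A smaller pseudocount lets genes near 0 FPKM reach 2-fold, and the share of all genes at this setting was not worked out. The members' median, 2.22, became 2.54 with a pseudocount of 0.1, 2.58 as a plain ratio, 2.42 with counts scaled by library size, 2.09 when centred, 2.14 without the GC trend and 2.10 without the length trend. Summing Oas1a and Oas1g, an alternative chosen after seeing the data, gave 7 of 7 at 2-fold and a median of 2.06. Over 20 bins, the median log2 difference of all genes ran from 0.42 at low GC content to −0.26 at high GC content. No paired analysis was possible because each group is 1 library, and no replicate could be left out for the same reason. Depth limits Ifnb1 and the OAS genes at 0 in the library labelled control, and counting intervals hold none of the variation between cultures.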
